A study of Mus musculus with 8 samples.

Results

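Tigit, Cd226 and Cd96 encode 3 immunoglobulin-family receptors on T cells and natural killer cells that bind the same family of cell-surface ligands, the nectins and nectin-like proteins. They were selected by name from a count table of 39179 genes, after their values across the groups of the study were known, so their levels and differences are given as descriptions without a p-value. All 3 passed the filter on low counts, which kept 11475 genes. The gene names were taken from the GENCODE M21 annotation through the Ensembl identifiers in the files.

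TIGIT is an inhibitory receptor whose cytoplasmic tail recruits phosphatases. CD226, also named DNAM-1, is its activating counterpart, signals through Src-family kinases and the integrin LFA-1, and competes with TIGIT for the poliovirus receptor PVR (CD155) and nectin-2. CD96 also binds PVR and has been described both as an inhibitory and as a costimulatory receptor. Follicular helper T cells (Tfh) are the CD4 T cells that help B cells in the follicle, and TIGIT is among the receptors known on them.

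The data are RNA sequencing counts from 8 mouse libraries in 4 groups of 2. The cells in all groups were T cells of Smarta T cell receptor-transgenic mice crossed to CreERT2 mice, so every group carried the transgenic receptor and the tamoxifen-activated recombinase. They were transduced with a retrovirus that held either inducible Bach2 or nothing (empty vector), moved into C57BL/6 hosts, and primed by subcutaneous immunization with nitrophenol and the GP61-80 peptide on mouse serum albumin. All hosts received tamoxifen on day 5, per the labels, and cells were sorted on day 6, 18 hours later. The sorted cells were Thy-1.1+ CD44hi and either CXCR5+ PD-1+ (Tfh) or CXCR5- PD-1- (non-Tfh), from inguinal lymph nodes that were pooled. Ages of the mice are not given in the labels. The labels do not say whether the 2 replicates of a group came from separate animals or transductions, so every error below measures only the spread between these samples.

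The libraries held 7862879 to 9889859 counts, and levels are given as counts scaled to library size (CPM). A gene with 0 counts in a library may still have had up to 3, or 0.303 to 0.382 CPM, counting error alone considered. The targeted gene Bach2 was at 11.2 and 14 CPM in Tfh cells with empty vector and at 121 and 135 CPM with the Bach2 vector. Non-Tfh cells held 24.9 and 28.9 CPM of it with empty vector and 131 and 158 CPM with the Bach2 vector. Vector-derived and endogenous Bach2 transcripts cannot be told apart in these counts. Markers of helper T cells (5 of 5 detected) summed to 3581 to 4983 CPM in every library. Cxcr5 averaged 754 and 612 CPM in the Tfh groups with empty and Bach2 vector, against 22.8 and 20.4 CPM in the non-Tfh groups, and both it and Pdcd1 encode proteins used for the sort. Regulatory T cell markers summed to 173 to 283 CPM, with Foxp3 at a group mean of 2.84 CPM or less. Within that list Ikzf2 was higher in Tfh cells (86.1 against 11.5 CPM with empty vector) and Il2ra in non-Tfh cells (8.06 against 127 CPM). CD8 T cell markers summed to 13.3 to 20.4 CPM, with Cd8a at a group mean of 0.690 CPM or less. B cell markers summed to 11.3 CPM or less and myeloid markers to 17.2 CPM or less. Stromal markers summed to 177 to 281 CPM, nearly all of it Pecam1, and Pdgfra was at 0 in every library.

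Tigit (ENSMUSG00000071552) lies on chromosome 16 at 43648867 to 43664146 on the minus strand of GRCm38, with 0.919 kb of exon in 1 annotated transcript. Cd96 (ENSMUSG00000022657) lies on the same chromosome and strand at 46035657 to 46120251, with 2.184 kb of exon in 1 annotated transcript. The windows just upstream of both genes are shown because Bach2 is a DNA-binding repressor. No window was available here for Cd226. Whether Bach2 acts at any of these genes was not tested. The table used here gives for Tigit the 250 bases at chr16:43664185-43664434 and for Cd96 the 247 bases at chr16:46120252-46120498, both on the minus strand of GRCm38.p6 and credited to RefSeq. They are printed 5′ to 3′, with capitals for the match to TGTGGT, the core bound by Runx factors, read here on the opposite strand.
Tigit upstream window: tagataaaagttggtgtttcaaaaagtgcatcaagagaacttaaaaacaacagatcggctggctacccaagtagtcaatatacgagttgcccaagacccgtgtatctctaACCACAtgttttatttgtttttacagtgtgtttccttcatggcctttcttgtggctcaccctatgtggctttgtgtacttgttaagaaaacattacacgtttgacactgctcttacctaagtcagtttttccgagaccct
Cd96 upstream window: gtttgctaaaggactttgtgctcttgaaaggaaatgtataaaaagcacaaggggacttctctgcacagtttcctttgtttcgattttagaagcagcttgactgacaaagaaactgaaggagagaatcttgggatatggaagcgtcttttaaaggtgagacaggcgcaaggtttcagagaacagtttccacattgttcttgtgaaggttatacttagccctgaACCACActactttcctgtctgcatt

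The motif TGANTCA, the core bound by AP-1 and by Bach2 with small Maf proteins, was searched on both strands and had 0 matches in either window. Of 32851 upstream windows of the same table, 6.75% held it. TGTGGT had 1 match in each window, and 14% of all windows held it. A match is a description of the letters and not a binding site, and the lack of one says nothing about the factor outside the window.

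Cd226 (ENSMUSG00000034028) lies on chromosome 18 at 89176967 to 89272229 on the plus strand of GRCm38, with 4.891 kb of exon over 10 annotated transcripts. None of the 3 genes overlaps another annotated gene, so the unstranded libraries leave no doubt of that kind about their reads. In these bulk libraries, fewer cells that express a gene and less RNA of it per cell cannot be told apart.

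Tigit, the inhibitory member, was highest in Tfh cells and lower under ectopic Bach2 in Tfh and non-Tfh cells alike. Its level in Tfh cells with empty vector was 403 and 351 CPM, from 4022 and 2777 counts. Tfh cells with ectopic Bach2 held 198 and 179 CPM. In non-Tfh cells the empty vector libraries held 72.8 and 55.3 CPM. The non-Tfh libraries with the Bach2 vector held 12.9 and 13.6 CPM, from 118 and 132 counts. The 4 groups did not overlap. Their order ran from Tfh with empty vector through Tfh with Bach2 and non-Tfh with empty vector down to non-Tfh with Bach2. With 2 libraries per group, the share of all genes that separate the groups in this way was not counted. No weight is therefore put on such a separation, here or below. The group means were 377 ± 36.8, 188 ± 13.5, 64.0 ± 12.3 and 13.2 ± 0.485 CPM (SD, n = 2 each).

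The fitted log2 fold change of Tigit with the Bach2 vector was -1.0 in Tfh cells (SE 0.115, 95% interval -1.25 to -0.75), a 2.00-fold lower level. In non-Tfh cells it was -2.27 (SE 0.146, -2.59 to -1.96), a 4.84-fold lower level and the 22nd lowest value among the 11475 genes. It ranked 232nd lowest in Tfh cells. Tigit was past the threshold used for the whole table (adjusted p below 0.05 in edgeR's quasi-likelihood test) in both comparisons, where 1.16% of tested genes passed it downwards in Tfh cells and 0.619% in non-Tfh cells. Because Tigit was chosen with these values known, nothing is read from those calls. The vector effects in the 2 cell types, Tfh less non-Tfh, differed by 1.27 (SE 0.187, 0.87 to 1.67). No gene of the whole table passed the threshold for that interaction (0% higher and 0% lower), 539 genes had an unadjusted p below 0.05, and DESeq2 called 4. Tigit passed it with DESeq2, with no filter on low counts and with the replicate number as a block, and nothing is read from this either.

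Tigit was 5.89-fold higher in Tfh than in non-Tfh cells with empty vector, a log2 difference of 2.56 (SE 0.124, 2.29 to 2.83) and the 106th highest of the table. With the Bach2 vector the difference was 14.2-fold, or 3.83 on the log2 scale (SE 0.144, 3.52 to 4.14). In these comparisons 10.6% of tested genes were called higher and 11.3% lower in Tfh cells with empty vector, and 11.6% higher and 12.7% lower with the Bach2 vector. The comparisons share libraries with the vector comparisons above, so they are not separate evidence.

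The Tfh markers (Cxcr5, Pdcd1, Bcl6, Il21 and Sh2d1a, 5 of 5 detected) moved with the cell type and, in part, with the vector. Their sum was 1865 to 2336 CPM in Tfh cells with empty vector and 1501 to 1889 CPM with the Bach2 vector. The non-Tfh sums were 388 to 446 CPM with empty vector and 255 to 317 CPM with Bach2. The ranges of the Tfh groups overlapped between vectors. Cxcr5 and Pdcd1 encode proteins used for the sort, so part of the difference between cell types was set by the sort. The part of these markers in the Tigit difference was not tested.

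**Figure D1:**
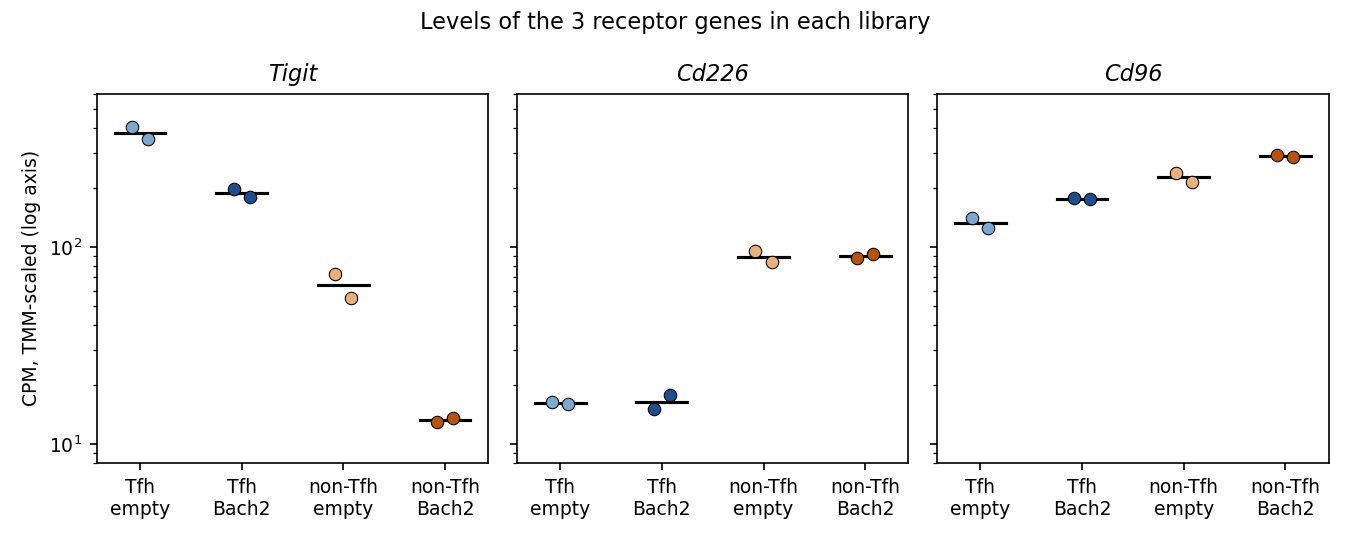
CPM (log axis) of Tigit, Cd226 and Cd96 in the 8 libraries, with 1 point per library and a bar at the mean of each group of 2. Tigit steps down from 377 to 13.2 CPM across the groups, Cd226 separates only the cell types, and Cd96 steps up from 133 to 289 CPM.

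Cd226, the activating member, followed the cell type and showed no difference between vectors beyond the spread of replicates. In Tfh cells its level was 16.3 and 15.9 CPM with empty vector and 15.1 and 17.8 CPM with the Bach2 vector. Non-Tfh cells held 95 and 83.7 CPM with empty vector and 88.1 and 92.2 CPM with the Bach2 vector. The Bach2 and empty vector libraries overlapped within each cell type, while every non-Tfh library lay above every Tfh library. The means were 16.1 ± 0.217 and 16.4 ± 1.89 CPM in Tfh cells and 89.3 ± 8.0 and 90.1 ± 2.90 CPM in non-Tfh cells (SD, n = 2 each, empty vector first).

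The log2 fold change of Cd226 with the Bach2 vector was 0.03 in Tfh cells (SE 0.143, 95% interval -0.28 to 0.33) and 0.01 in non-Tfh cells (SE 0.116, -0.24 to 0.26). These intervals bound a change in either direction and do not show that there was none. The percentages of genes called higher in these comparisons were 0.549% in Tfh cells and 0.253% in non-Tfh cells. With empty vector, Tfh cells held 5.54-fold less Cd226 than non-Tfh cells, a log2 difference of -2.47 (SE 0.132, -2.75 to -2.19) and the 172nd lowest of the table. In cells with ectopic Bach2 it was 5.5-fold lower, at -2.46 (SE 0.131, -2.74 to -2.18). The interaction was 0.01 (SE 0.184, -0.38 to 0.41).

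Tfh cells held less Cd96 than non-Tfh cells, and its Bach2 vector libraries lay above the empty vector libraries in each cell type. In Tfh cells it was at 140 and 125 CPM with empty vector and at 176 and 174 CPM with the Bach2 vector. In non-Tfh cells it was at 237 and 214 CPM with empty vector and at 294 and 285 CPM with the Bach2 vector. The order of the 4 groups was the reverse of that of Tigit. The means were 133 ± 10.6, 175 ± 1.68, 226 ± 16.7 and 289 ± 6.40 CPM (SD, n = 2 each).

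The fitted log2 fold change of Cd96 with the Bach2 vector was 0.40 in Tfh cells (SE 0.0889, 95% interval 0.21 to 0.59), a 1.32-fold higher level. In non-Tfh cells it was 0.36 (SE 0.0867, 0.17 to 0.55), or 1.28-fold. Cd96 was past the table's threshold in Tfh cells, where 0.549% of tested genes passed it upwards, and not in non-Tfh cells, where 0.253% did. In non-Tfh cells it passed with no filter on low counts and with the replicate number as a block. More genes of the whole table were called there too (332 and 207, both directions). Because Cd96 was chosen with these values known, nothing is read from its calls. The difference between both effects was 0.04 (SE 0.124, -0.22 to 0.31). The call in Tfh cells was lost without any 1 of 5 libraries: Tfh empty vector replicate 2, either non-Tfh empty vector replicate and either Tfh Bach2 replicate. Tfh cells held 1.70-fold less Cd96 than non-Tfh cells with empty vector, at -0.77 on the log2 scale (SE 0.0886, -0.96 to -0.58). The Bach2 groups gave a 1.65-fold lower level, at -0.72 (SE 0.0875, -0.91 to -0.54).

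Natural killer cells also express Cd96 and Cd226, and the summed level of their markers (3 of 5 with counts) moved with the vector. With empty vector the sum came to 59.7 to 67.1 CPM in Tfh and 60.2 to 72.1 CPM in non-Tfh cells, and with Bach2 to 93.3 to 97.9 and 88.7 to 117 CPM. In Tfh cells most of the sum was Klrb1c (58.7 CPM without and 89.6 CPM with ectopic Bach2), and in non-Tfh cells most of it was Gzma (51.7 and 81.7 CPM). Klre1 was at 0.214 and 0.175 CPM in the Tfh groups and at 1.54 and 4.35 CPM in the non-Tfh groups, empty vector first. Ncr1 and Klra8 were at 0 counts in all 8 libraries. The part of such cells in the Cd96 and Cd226 values was not tested.

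**Figure D2:**
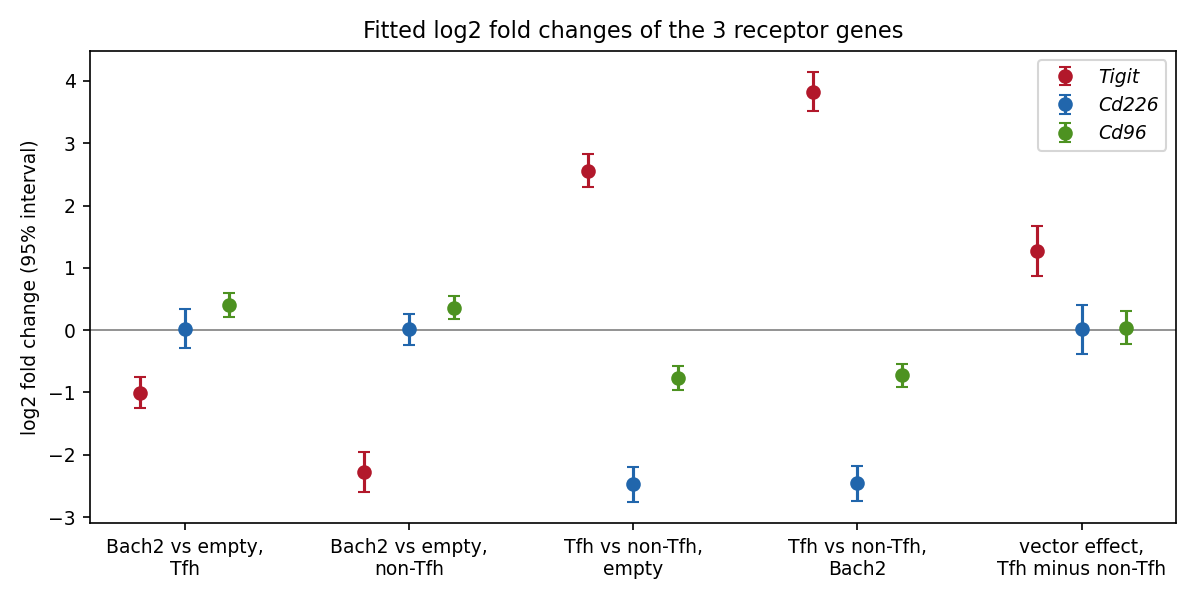
Fitted log2 fold changes (y axis) of the 3 genes in the 5 comparisons, as points with 95% intervals from the fit over 8 libraries. Tigit and Cd226 lie on opposite sides of 0 between cell types, at 2.56 and -2.47 with empty vector, and the Cd226 intervals for the vector include 0.

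Levels of different genes were compared per kilobase of exon, since counts grow with transcript length. On this scale the mean levels in Tfh cells with empty vector were 411 ± 40.1 for Tigit, 60.7 ± 4.86 for Cd96 and 3.29 ± 0.0444 for Cd226, in CPM per kb (SD, n = 2). In Bach2-transduced non-Tfh cells they were 14.4 ± 0.528 for Tigit, 133 ± 2.93 for Cd96 and 18.4 ± 0.593 for Cd226. Tigit was therefore the highest of the 3 in the first group and the lowest in the last. The exon lengths come from all annotated transcripts of a gene, and the lengths the authors' annotation would give were not used here. Cd226 has 10 annotated transcripts, and Tigit and Cd96 have 1 each. How far each length is from that of the RNA in these cells was not tested.

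The share of Tigit in the sum of the 3 genes, per kb, was 86.7% and 86.3% in Tfh cells with empty vector and 72.0% and 70.0% with the Bach2 vector. In non-Tfh cells its share was 38.2% and 34.4% with empty vector and 8.41% and 9.0% with Bach2. The share of Cd96 was 12.7% and 12.9%, then 27.0% and 28.7% in the Tfh groups, and 52.4% and 55.9%, then 80.8% and 79.5% in the non-Tfh groups. Cd226 held 0.656% to 1.31% in Tfh libraries and 9.37% to 11.5% in non-Tfh libraries. The sum of the 3 genes was 507 and 443 CPM per kb in Tfh cells with empty vector, 299 and 278 with Bach2, 207 and 175 in non-Tfh cells with empty vector, and 167 and 164 with Bach2.

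**Figure D3:**
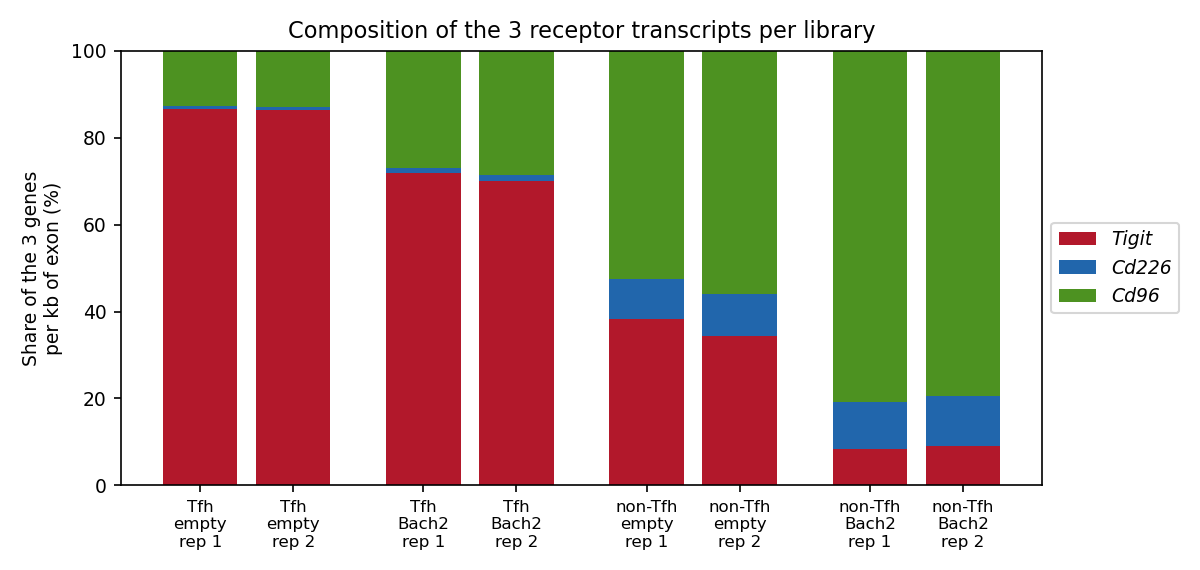
Stacked bars of the share (%) of Tigit, Cd226 and Cd96 in their summed level per kb of exon, 1 bar per library. Tigit makes up over 86% of the sum in Tfh cells with empty vector and 9.0% or less in non-Tfh cells with Bach2, where Cd96 holds about 80%.

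A ratio of 2 genes within a library does not depend on how libraries are scaled. The ratio of Tigit to Cd226 per kb, the inhibitory over the activating receptor, was 132 and 117 in Tfh cells with empty vector and 69.8 and 53.6 with the Bach2 vector. The non-Tfh ratios were 4.08 and 3.52 with empty vector and 0.778 and 0.783 with Bach2. On the log2 scale the group means were 6.96 ± 0.121, 5.93 ± 0.270, 1.92 ± 0.15 and -0.36 ± 0.00651 (SD, n = 2). Cd226 transcripts thus exceeded Tigit transcripts per kb in 1 group only, the non-Tfh cells with Bach2, and the place of that crossing depends on the lengths used.

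The ratio of Tigit to Cd96 per kb fell in the same order, from 6.85 and 6.68 through 2.66 and 2.44 to 0.728 and 0.615 and then 0.104 and 0.113. The ratio of Cd96 to Cd226 was 19.3 and 17.6 in Tfh cells with empty vector and 26.2 and 22.0 with Bach2. It was 5.60 and 5.72 in non-Tfh cells with empty vector and 7.47 and 6.92 with Bach2. This last ratio was higher in Bach2 than in empty vector libraries of the same cell type.

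The ligands are carried mostly by other cells, and 1 of the 9 listed passed the low-count filter in these T cells. Pvr, which encodes the high-affinity ligand of TIGIT, was at 31.7 ± 3.68 CPM in Tfh cells with empty vector, 26.3 ± 3.75 with Bach2, 19.9 ± 1.67 in non-Tfh cells with empty vector and 22.3 ± 3.57 with Bach2 (SD, n = 2). It was higher in Tfh than in non-Tfh cells with empty vector, by 0.68 on the log2 scale (SE 0.170, adjusted p = 0.0107, edgeR). That call was lost without Tfh replicate 1 and without non-Tfh replicate 2 of the empty vector, with an adjusted p of 0.000903 to 0.116 over the settings. With the Bach2 vector the difference was 0.25 (adjusted p = 0.336), and the vector effect was -0.27 in Tfh cells (adjusted p = 0.469) and 0.16 in non-Tfh cells (adjusted p = 0.833).

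The other ligand genes were close to or at the limit of detection. Nectin2 held 2 to 11 counts per group, Nectin1 1 to 7, Nectin4 2 to 10, Cadm1 3 to 5 and Nectin3 0 to 2. Cadm2, Cadm3 and Cadm4 had 0 counts in every library. Crtam, a receptor for the nectin-like protein CADM1, was at 2.51 and 3.67 CPM in Tfh cells with empty vector and at 1.41 and 0.846 CPM with Bach2. Non-Tfh cells held 1.64 and 3.12 CPM with empty vector and 6.22 and 3.70 CPM with Bach2. Under ectopic Bach2, Tfh cells held less Crtam than non-Tfh cells, by -2.11 on the log2 scale (SE 0.477, adjusted p = 0.00497, edgeR), from 20 against 93 counts. Without replicate 1 of the non-Tfh Bach2 group its adjusted p was 0.0541, the highest over the settings, the lowest being 6.34e-05. Its vector effects were -1.41 in Tfh (adjusted p = 0.179) and 1.06 in non-Tfh cells (adjusted p = 0.402). The interaction was -2.47 (SE 0.660, adjusted p = 0.657, edgeR). With no low-count filter it was called (adjusted p = 0.0481, edgeR), where 37 genes of the whole table were. Pvrig, the remaining relative on the list, was not analysed here.

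Among the genes that carry the signal of TIGIT and CD226 inside the cell, none passed the threshold for the vector. Of 17 signalling partners, all tested, 0 were called in either cell type by edgeR or by DESeq2. Over the whole table, 0.549% of genes were called higher and 1.16% lower in Tfh cells, and 0.253% and 0.619% in non-Tfh cells, so 0 of 17 is near the background and is no result about the list. At an unadjusted p below 0.05 there were 2 in Tfh and 1 in non-Tfh cells, beside 1823 and 1188 of the 11475 tested genes. The median log2 fold change was -0.01 in Tfh cells and 0.00 in non-Tfh cells, as it was over all tested genes (0.00 in both). For the interaction, 0 were called and 1 had an unadjusted p below 0.05.

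Between cell types the signalling partners split. With empty vector 6 of 17 were higher and 1 was lower in Tfh cells, where 10.6% and 11.3% of all tested genes were. The median log2 difference was 0.11 against 0.01 over all tested genes. Ptpn11, which encodes the phosphatase SHP-2, was at 158 ± 10.3 CPM in Tfh and 76.6 ± 6.31 CPM in non-Tfh cells, a log2 difference of 1.04 (SE 0.124, adjusted p = 4.06e-05, edgeR). Fyn, a Src-family kinase that phosphorylates CD226, was 0.91 higher (SE 0.0758, adjusted p = 1.37e-06). Plcg1, a phospholipase of T cell receptor signalling, was 0.54 higher (adjusted p = 0.00334), and Cblb, an E3 ligase that limits T cell activation, was 0.37 higher (adjusted p = 0.0211). The Cblb call was lost without any of 3 libraries, Tfh replicate 1 and both non-Tfh replicates of the empty vector. The 1 lower gene was Ptpn6, which encodes the phosphatase SHP-1, at -0.36 (SE 0.0801, adjusted p = 0.00547); it was named after its value was seen and was lost without Tfh replicate 1 or non-Tfh replicate 2. The count of 7 genes fell to 3 without either of those 2 libraries.

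With the Bach2 vector 6 partners were higher and 3 lower in Tfh cells, where 11.6% and 12.7% of all tested genes were, with a median of 0.18 against 0.00 over all tested genes. Ptpn11 (0.97, adjusted p = 7.57e-05, edgeR), Fyn (0.88, adjusted p = 2.05e-06) and Plcg1 (0.69, adjusted p = 0.00051) were again higher. Plcg2, a phospholipase better known from B and natural killer cells, was lower by -3.62 (SE 0.550, adjusted p = 0.000256), from 0.525 against 6.5 CPM, that is 9 against 123 counts. Ptpn6 was lower with this vector too, at -0.41 (adjusted p = 0.00177). The count of 9 was 5 without replicate 1 of the Tfh Bach2 group. With both vectors Tigit and the same 6 partners, Ptpn11, Fyn, Lck, Plcg1, Itgal and Cblb, were higher in Tfh cells. Lck and Itgal are named only to complete this list. With the Bach2 vector the Cblb difference was 0.31 (adjusted p = 0.0474, edgeR). That call was lost with DESeq2, with the compared libraries alone and in several fits that left out a library. With either vector the Lck and Itgal calls were lost in some fits that left out a library. Cd226, Cd96 and Ptpn6 were lower in Tfh cells with both vectors.

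Other costimulatory and inhibitory receptors were also examined, as a list chosen with earlier results of these data known and so not a neutral background. Of 25 listed, 24 were tested. With the Bach2 vector 0 were called higher and 1 lower in Tfh cells, and 0 higher and 3 lower in non-Tfh cells, with median log2 fold changes of -0.13 and -0.19 against 0.00 over all tested genes. The shares of all tested genes were 0.549% higher and 1.16% lower in Tfh cells, and 0.253% and 0.619% in non-Tfh cells. At an unadjusted p below 0.05 there were 12 of 24 in Tfh and 11 in non-Tfh cells, beside 1823 and 1188 of the 11475 genes. The called gene in Tfh cells was Tnfrsf9, which encodes the costimulatory receptor 4-1BB, at -0.60 (SE 0.130, adjusted p = 0.0302, edgeR). Its libraries held 85.7 and 86.6 CPM with empty vector and 61.0 and 52.3 CPM with Bach2. The call was lost without either empty vector replicate or without replicate 2 of the Tfh Bach2 group, with an adjusted p of 0.000232 to 0.201 over the settings.

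Among non-Tfh libraries Havcr2, the gene of the inhibitory receptor TIM-3, fell by 1.66 on the log2 scale (SE 0.230, adjusted p = 0.00467, edgeR). Its libraries held 46.5 and 51.0 CPM with empty vector and 13.0 and 17.7 CPM with Bach2. Tnfrsf9 fell by 0.96 (SE 0.135, adjusted p = 0.00416), from 63.9 to 32.9 CPM. Lag3, an inhibitory receptor for MHC class II, fell by 0.68 (SE 0.134, adjusted p = 0.0281), from 48.3 to 30.1 CPM. In the fit on the compared libraries alone, Lag3 was not called. Each of the 3 calls was also lost in some fit without 1 of the non-Tfh libraries, which leaves 1 library in a group. Over the whole table, calls for the vector in non-Tfh cells fell in each fit of that kind, so this loss is not particular to the 3 genes.

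The interaction was called for 0 of the 24 by edgeR, with 3 at an unadjusted p below 0.05, and for 1 by DESeq2. That 1 gene was Lag3, whose vector effect in Tfh cells exceeded that in non-Tfh cells by 1.08 on the log2 scale (adjusted p = 0.141, edgeR); DESeq2 gave 1.09 (adjusted p = 0.00258). Lag3 was at 76.5 and 85.3 CPM in Tfh cells with empty vector and at 105 and 109 CPM with Bach2.

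**Figure D4:**
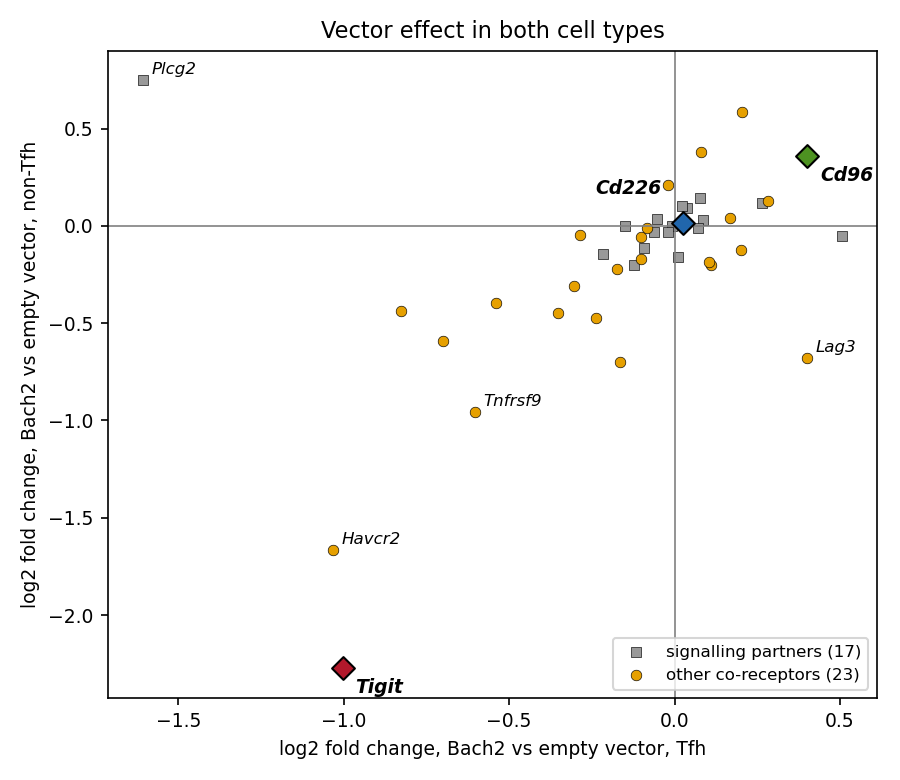
Log2 fold change with the Bach2 vector in Tfh cells (x axis) against that in non-Tfh cells (y axis) for the 3 receptor genes (diamonds), the 17 signalling partners (squares) and the tested co-receptors (circles), without Klrg1, which had 0 counts in Tfh cells with Bach2. Tigit lies lowest of those plotted in non-Tfh cells, with Havcr2 nearest to it, Cd226 lies close to the origin and Cd96 on the upper right.

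Between cell types with empty vector, 10 of the 24 co-receptors were higher and 8 lower in Tfh cells, where 10.6% and 11.3% of all tested genes were, with a median of 0.16. Klrg1, a receptor of terminally differentiated effector cells, was lower by -4.24 (SE 0.643, adjusted p = 0.000366, edgeR), from 4 against 82 counts. Havcr2 was lower by -3.23 (SE 0.264, adjusted p = 1.88e-06), and Lair1, an inhibitory collagen receptor, by -2.75 (SE 0.196, adjusted p = 4.07e-07). Cd160, a receptor for the herpesvirus entry mediator, was higher by 2.53 (SE 0.210, adjusted p = 3.51e-05), with 186 and 151 CPM against 30.2 and 28.0 CPM. Pdcd1 is among the higher genes and was used for the sort.

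With the Bach2 vector 11 co-receptors were higher and 7 lower, where 11.6% and 12.7% of all tested genes were, with a median of 0.20. Klrg1 had 0 against 84 counts and was at least 25.9-fold lower in Tfh cells, against a floor of 3 counts over the group. Lair1 was lower by -3.13 (SE 0.217, adjusted p = 2.82e-07, edgeR) and Havcr2 by -2.59 (SE 0.312, adjusted p = 4.89e-05). Cd160 was higher by 2.63 (SE 0.216, adjusted p = 3.27e-05). Among the receptor genes and the co-receptors named for both vectors, Tigit and Cd160 thus stood on the Tfh side. Cd226, Cd96, Havcr2, Lair1 and Klrg1 stood on the non-Tfh side.

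The genes whose profiles over the 8 libraries were nearest to each receptor gene were found among 8342 tested genes with a mean of at least 10 CPM. The distance was the root mean square difference of log2 CPM after each profile was centred on its own mean, and Pearson's r is given as a description over 8 libraries that share 4 groups. Nearest to Tigit was Il21, the Tfh cytokine, at a distance of 0.416 (r = 0.98), with group means of 345, 220, 59.2 and 22.7 CPM in the order used for Tigit. Cela1 (0.523), Il1r1 (0.572), which encodes an interleukin-1 receptor, and Nav2 (0.594) were also among the 5 nearest. Il1r1 went from 115 and 82.6 CPM in the Tfh groups to 18.3 and 8.84 CPM in the non-Tfh groups.

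Nearest to Cd226 were Arl4c (distance 0.164), Hid1 (0.173), Bhlhe40 (0.180), Hopx (0.182) and Ptgir (0.194), with r from 0.990 to 0.993. Bhlhe40 encodes a transcription factor of effector helper T cells and was at 57.0 and 47.8 CPM in the Tfh groups and 302 and 282 CPM in the non-Tfh groups. Hopx, a homeodomain-only protein found in effector helper T cells, was at 34.8 and 38.8 CPM and at 163 and 176 CPM. Nearest to Cd96 were H2-Q6 (0.115), Fam53b (0.122), 4930523C07Rik (0.125), Arid3b (0.129) and Rapgef6 (0.130). H2-Q6 belongs to a family of near-identical class I genes, so the split of its reads is uncertain. Its group means were 157, 192, 233 and 336 CPM. The distance to the nearest gene is smaller for Cd96 than for Tigit, whose range over the libraries is larger. The choice of measure matters here, since the 5 genes with the highest r shared 1 gene with the list by distance for Tigit, 1 for Cd226 and 0 for Cd96.

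**Figure D5:**
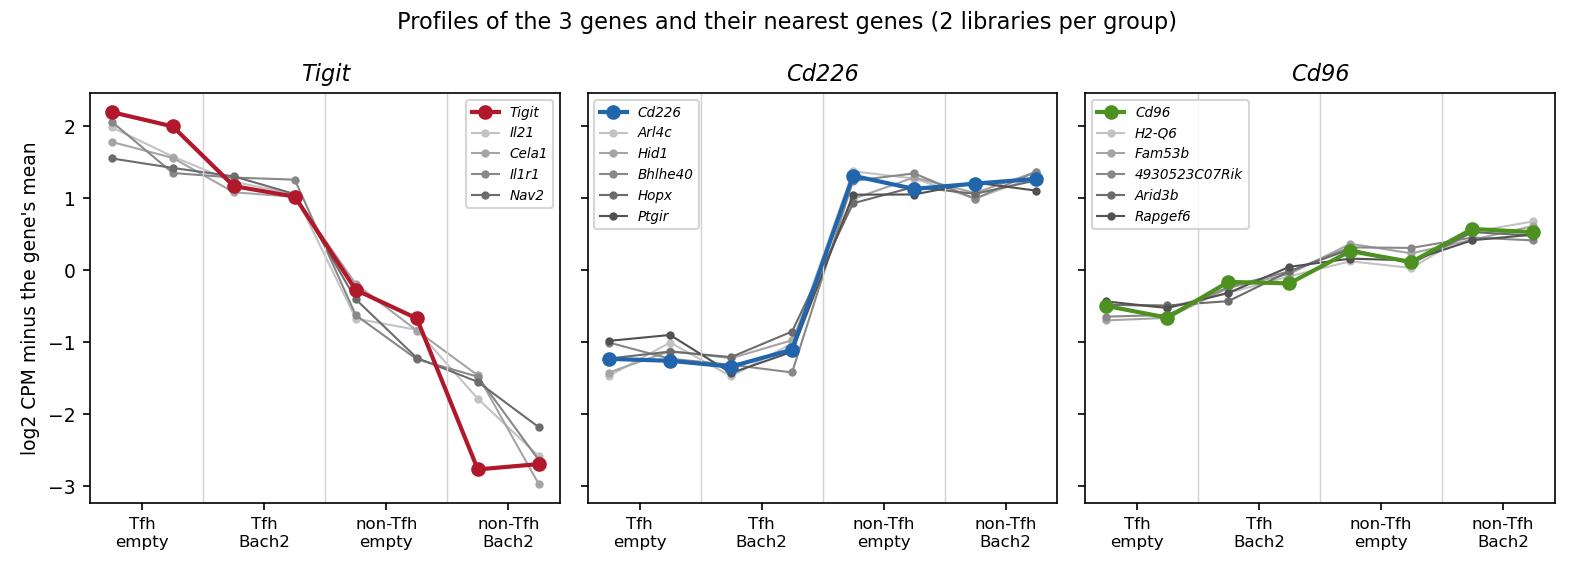
Log2 CPM minus the gene's mean (y axis) over the 8 libraries, in groups of 2, for Tigit, Cd226 and Cd96 (coloured) and the nearest genes named for each (grey). The lines join libraries only to show each profile, and those of Tigit stay farther from it (0.416 to 0.594) than those of Cd226 or Cd96 from theirs.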

How the data were processed

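The deposited files hold raw counts per Ensembl gene, 1 file per library. The submitters' processing notes name TopHat2, Bowtie2, featureCounts and GRCm38/mm10. Versions and the annotation release: not given in the sources used here. Per the labels' protocols, RNA was amplified with Smart-Seq v4 and made into libraries with Nextera XT, which does not mark strand. Symbols came from GENCODE M21, which matched 37693 of 39179 identifiers; the other 1486 held 0.187% to 0.205% of counts and stayed in the fit.

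Genes were filtered with filterByExpr (minimum count 10, minimum total 15). Counts of all 8 libraries were fitted with edgeR 4.0.16 in R 4.3.3, with 1 coefficient per group, trimmed-mean (TMM) scaling, the robust quasi-likelihood test and Benjamini-Hochberg adjustment over 11475 genes (threshold 0.05, 4 residual degrees of freedom). Scripts were tested on simulated data. The chi-square per degree of freedom between replicates was 5.67 to 8.81, so no library was a copy.

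The members and lists were chosen with earlier results of these data known. Members have intervals but no p-value. From the lists of signalling partners and co-receptors, up to 4 called genes with the largest change per comparison were named, from ligands and related receptors all, and for each member the 5 nearest genes. DESeq2 1.42.0, DESeq2 size factors, no filter, compared libraries only, a replicate block and leaving out each library were alternatives. No protein sequences were used here. Of the 5 genes nearest to Tigit, 4 are named, and the remaining one is not reported here.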

Additional observations from a re-analysis of the deposited data

How the results depend on the processing

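The 15 fold changes of the 3 genes had 192 values under the alternatives. Of these, 175 moved by less than the spread between replicates, 17 by more, and 0 of the called ones changed sign. Many alternatives leave the compared counts unchanged, so small moves were likely beforehand and their number does not measure robustness. With each library left out, Tigit ran from -2.45 to -2.06 for the vector in non-Tfh cells, from 2.38 to 2.77 for the cell types with empty vector, and from 1.06 to 1.45 for the interaction. Cd226 ran from -0.093 to 0.142 for the vector in Tfh cells, from -2.58 to -2.34 for the cell types with Bach2, and from -0.107 to 0.130 for the interaction. Cd96 ran from 0.321 to 0.487 for the vector in Tfh cells, from -0.849 to -0.685 for the cell types with empty vector, and from -0.039 to 0.126 for the interaction. Because the 3 genes were chosen with their values known, nothing is read from whether they passed the threshold. Among the alternatives that left out no single library, Tigit passed it for the vector in both cell types in all. Cd96 passed it in Tfh cells in all but the fit on the compared libraries alone. In non-Tfh cells Cd96 passed it with no filter and with the replicate block. The Tigit interaction passed it with no low-count filter, with DESeq2 and with the replicate block, and not with DESeq2 size factors.

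Of the called list counts, signalling partners ran from 3 to 7 between cell types with empty vector and from 5 to 9 with Bach2 as libraries were left out. Co-receptors called for the vector in Tfh cells (1) were 8 with no filter, 3 with DESeq2, 4 with the replicate block and 0 to 3 with a library left out. In non-Tfh cells (3) they were 7 with no filter, 5 with the replicate block and 1 to 4 with a library left out, and for the interaction (0) 1 with no filter, with DESeq2 and with the replicate block. Over the whole table, calls for the vector in Tfh cells were 196, against 736 with no filter, 326 with DESeq2 and 473 with the block, and in non-Tfh cells 100, against 332, 161 and 207. For the interaction they were 0, against 37, 4 and 3. The cause of these shifts was not tested. Leaving out 1 of the compared libraries leaves 1 in its group, and it mostly lowered the calls over the whole table as well. The exception was the vector in Tfh cells without replicate 1 of either Tfh group, where they rose. Where calls over the whole table fell too, a lowered call or count therefore says little about its genes. This does not cover the exception. There the Tnfrsf9 call was lost without the empty vector replicate 1, and the Cd96 call without the Bach2 replicate 1. Same-numbered replicates correlated in their deviations by 0.00458 to 0.219. The 2 highest values were between Tfh and non-Tfh cells of the same vector, at 0.204 (empty) and 0.219 (Bach2). The other pairs of groups ran from 0.00458 to 0.122. With 2 numbers per group these values do not show that the numbers pair the samples. The replicate block joined the numbers across vectors. A pairing of the cell types within a vector was not tested, and the cell types were compared without one. Genes near 0.303 to 0.382 CPM, such as the nectin genes, were not measurable at this depth.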

Other observations

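The tested genes within 500 kb of each receptor gene, chosen by position after the data were examined, numbered 7 for Tigit, 2 for Cd226 and 3 for Cd96. By edgeR, 0 of these 12 were called for the vector in either cell type, where 0.549% and 1.16% of all tested genes were called higher and lower in Tfh cells and 0.253% and 0.619% in non-Tfh cells, so no call among 12 genes is no result about them. Between cell types 0 were called with empty vector and 1 with the Bach2 vector, Zdhhc23 near Tigit, at 1.75 on the log2 scale (adjusted p = 0.013). Of all tested genes, 10.6% were called higher and 11.3% lower between cell types with empty vector, and 11.6% and 12.7% with Bach2.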
